A study of Mus musculus with 34 samples.

Results

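The genes described here encode the subunits of voltage-gated sodium and calcium channels. They were chosen by symbol, as every Scn gene with an a or b suffix and every Cacna1, Cacna2d, Cacnb and Cacng gene with a count in at least 1 library, which gave 40 of the 20372 symbols with a count. By role they were 10 sodium channel alpha subunits, 4 sodium channel beta subunits, 7 high-voltage-activated calcium alpha1 subunits, 3 T-type alpha1 subunits, 4 alpha2delta subunits, 4 calcium channel beta subunits and 8 gamma subunits. Scn2a, as GENCODE names it, stands as Scn2a1 in the tables. The rule uses symbols and the presence of a count, and it was set with earlier results of these data known.

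Sodium channel alpha subunits form the pore that carries the rising phase of the action potential, and beta subunits set their gating and hold them at the cell surface. Calcium channel alpha1 subunits form the pore through which depolarization lets calcium into the cell, where it releases transmitter, shapes firing and signals to the nucleus. Alpha2delta and calcium channel beta subunits bring the alpha1 pore to the membrane, while most gamma subunits are better known as partners of AMPA-type glutamate receptors.

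RNA was sequenced from the hippocampus of WT mice given fluoxetine, a selective serotonin reuptake inhibitor, or vehicle. The main output neurons of the dentate gyrus, granule cells, had 4 fluoxetine and 4 vehicle libraries. The glutamatergic hilar neurons known as mossy cells, spelled Moosy cells by the labels, had 7 fluoxetine and 6 vehicle libraries, and whole hippocampus likewise had 7 and 6. All libraries, hippocampus included, are labelled as made by translating ribosome affinity purification (TRAP), which recovers mRNA on tagged ribosomes. The labels give no dose, duration, age, sex or driver of the tag, and do not say whether a hippocampus library holds ribosome-bound or total RNA. They do not say that libraries of a group came from separate animals, so p-values measure only the spread between these samples. In such bulk RNA, fewer cells of a type and less RNA per cell cannot be told apart.

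Of the 40 genes, 10 have no entry in the RefSeq promoter table. The other 30 gave 41 windows of the 250 bases before an annotated start (RefSeq, GRCm38.p6). Their median GC content was 56.8%, against 52.4% over 32851 windows of all genes. The GC box, GGGCGG on either strand, was in 36.6% of the channel windows and in 32.7% of all windows. The cAMP response element TGACGTCA and the E-box CACGTG were in 0 of 41, against 1.55% and 6.02% of all windows, the site GCGTGGGCG in 2.44% against 0.536%, and TATAAA in 4.88% against 12.4%. The windows of 4 calcium channel genes called higher with fluoxetine both in mossy cells and in hippocampus are printed here 5′ to 3′ on the gene's strand. The 4 were picked by hand as examples, and a relation of promoter sequence to the changes was not tested. Capitals mark the GC box on either strand, and boxes may share bases. Cacna2d1, an alpha2delta gene (chr5:15934441-15934690, plus strand), had 6 boxes. Cacna2d3, another alpha2delta gene (chr14:29721865-29722114, minus strand), had 4. Cacna1b, the N-type pore gene (chr2:24763153-24763402, minus strand), had 3. Cacna1i, a T-type pore gene (chr15:80286988-80287237, plus strand), had 0. The GC content of these windows was 82.4%, 80%, 72% and 62.4%.
Cacna2d1: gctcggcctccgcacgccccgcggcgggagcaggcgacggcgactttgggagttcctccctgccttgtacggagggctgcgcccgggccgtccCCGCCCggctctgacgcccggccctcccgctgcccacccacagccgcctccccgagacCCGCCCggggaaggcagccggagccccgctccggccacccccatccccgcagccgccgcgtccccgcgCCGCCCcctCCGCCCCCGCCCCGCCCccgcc
Cacna2d3: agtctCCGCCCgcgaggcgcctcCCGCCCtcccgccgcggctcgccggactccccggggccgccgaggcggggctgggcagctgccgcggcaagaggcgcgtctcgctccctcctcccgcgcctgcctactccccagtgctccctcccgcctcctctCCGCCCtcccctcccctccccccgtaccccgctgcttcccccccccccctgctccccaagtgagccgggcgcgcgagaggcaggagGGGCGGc
Cacna1b: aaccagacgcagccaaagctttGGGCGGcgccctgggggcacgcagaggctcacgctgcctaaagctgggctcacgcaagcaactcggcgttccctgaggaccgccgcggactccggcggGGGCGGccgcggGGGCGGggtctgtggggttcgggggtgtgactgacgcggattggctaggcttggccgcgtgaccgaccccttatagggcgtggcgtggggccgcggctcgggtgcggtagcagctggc
Cacna1i: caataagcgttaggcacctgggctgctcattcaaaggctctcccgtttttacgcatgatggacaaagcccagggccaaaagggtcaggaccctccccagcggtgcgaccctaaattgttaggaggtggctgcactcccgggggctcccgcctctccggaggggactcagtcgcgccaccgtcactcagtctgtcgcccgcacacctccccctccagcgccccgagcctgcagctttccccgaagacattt

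The total per library was 14111950 to 39988227 counts for granule cells, 23581121 to 43452534 for mossy cells and 23857790 to 44952269 for hippocampus. Rn45s, the ribosomal RNA precursor, took 0.694 to 7.71%, 15.3 to 22.5% and 11.5 to 15.3% of them. Summed granule cell markers were at 1133 to 1604 CPM (counts scaled to library size, with TMM factors) in granule-cell libraries, 230 to 303 CPM in mossy-cell libraries and 512 to 691 CPM in hippocampus libraries. Of the mossy cell markers, Calb2 averaged 288 ± 41 CPM in mossy-cell vehicle libraries and 15.4 ± 1.9 CPM in hippocampus vehicle libraries, and Drd2 31 ± 5 and 4.67 ± 0.66 CPM (SD, n = 6 each). Calcrl, on the same list, was lower in mossy cells, at 0.942 ± 0.49 against 5.48 ± 0.67 CPM. Interneuron markers summed to 2621 to 4533 CPM in mossy-cell libraries, against 505 to 610 CPM in hippocampus libraries, with Sst and Gad2 the most abundant. In these libraries RNA of mossy cells and RNA of interneurons cannot be told apart.

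The first comparison asked how fluoxetine changes these mRNAs in mossy cells. The genes of all 3 T-type pores, of the P/Q-, N- and L-type pores Cacna1a, Cacna1b and Cacna1c, of 3 alpha2delta subunits and of the sodium channel Scn8a rose, while Cacnb4, a calcium channel beta subunit, fell. In all, 15 of the 33 genes tested were called higher and 1 lower at an adjusted p under 0.05 in edgeR's quasi-likelihood test, where 8.05% of all 14229 genes tested were called higher and 1.26% lower, 9.31% in all. The median log2 change was 0.38 over the channel genes and -0.00331 over all genes. In 6 of 33 every fluoxetine library lay above every vehicle library, against 2.49% of all genes, and in 0 below, against 0.696%.

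By role, 2 of 7 sodium alpha genes, 2 of 4 sodium beta genes, 3 of 5 high-voltage alpha1 genes, 3 of 3 T-type genes, 3 of 4 alpha2delta genes, 0 of 4 calcium beta genes and 2 of 6 gamma genes were called higher. The count of 16 calls fell to 10 without vehicle library 4, without vehicle library 6 or without fluoxetine library 4. It fell to 1 without vehicle libraries 1, 2 and 4, which held the most choroid plexus RNA, and to 1, Cacna1i, without vehicle libraries 3, 5 and 6. The median change was then 0.44 and 0.34. The share of all genes called in these smaller fits was not set beside the counts.

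**Figure D1:**
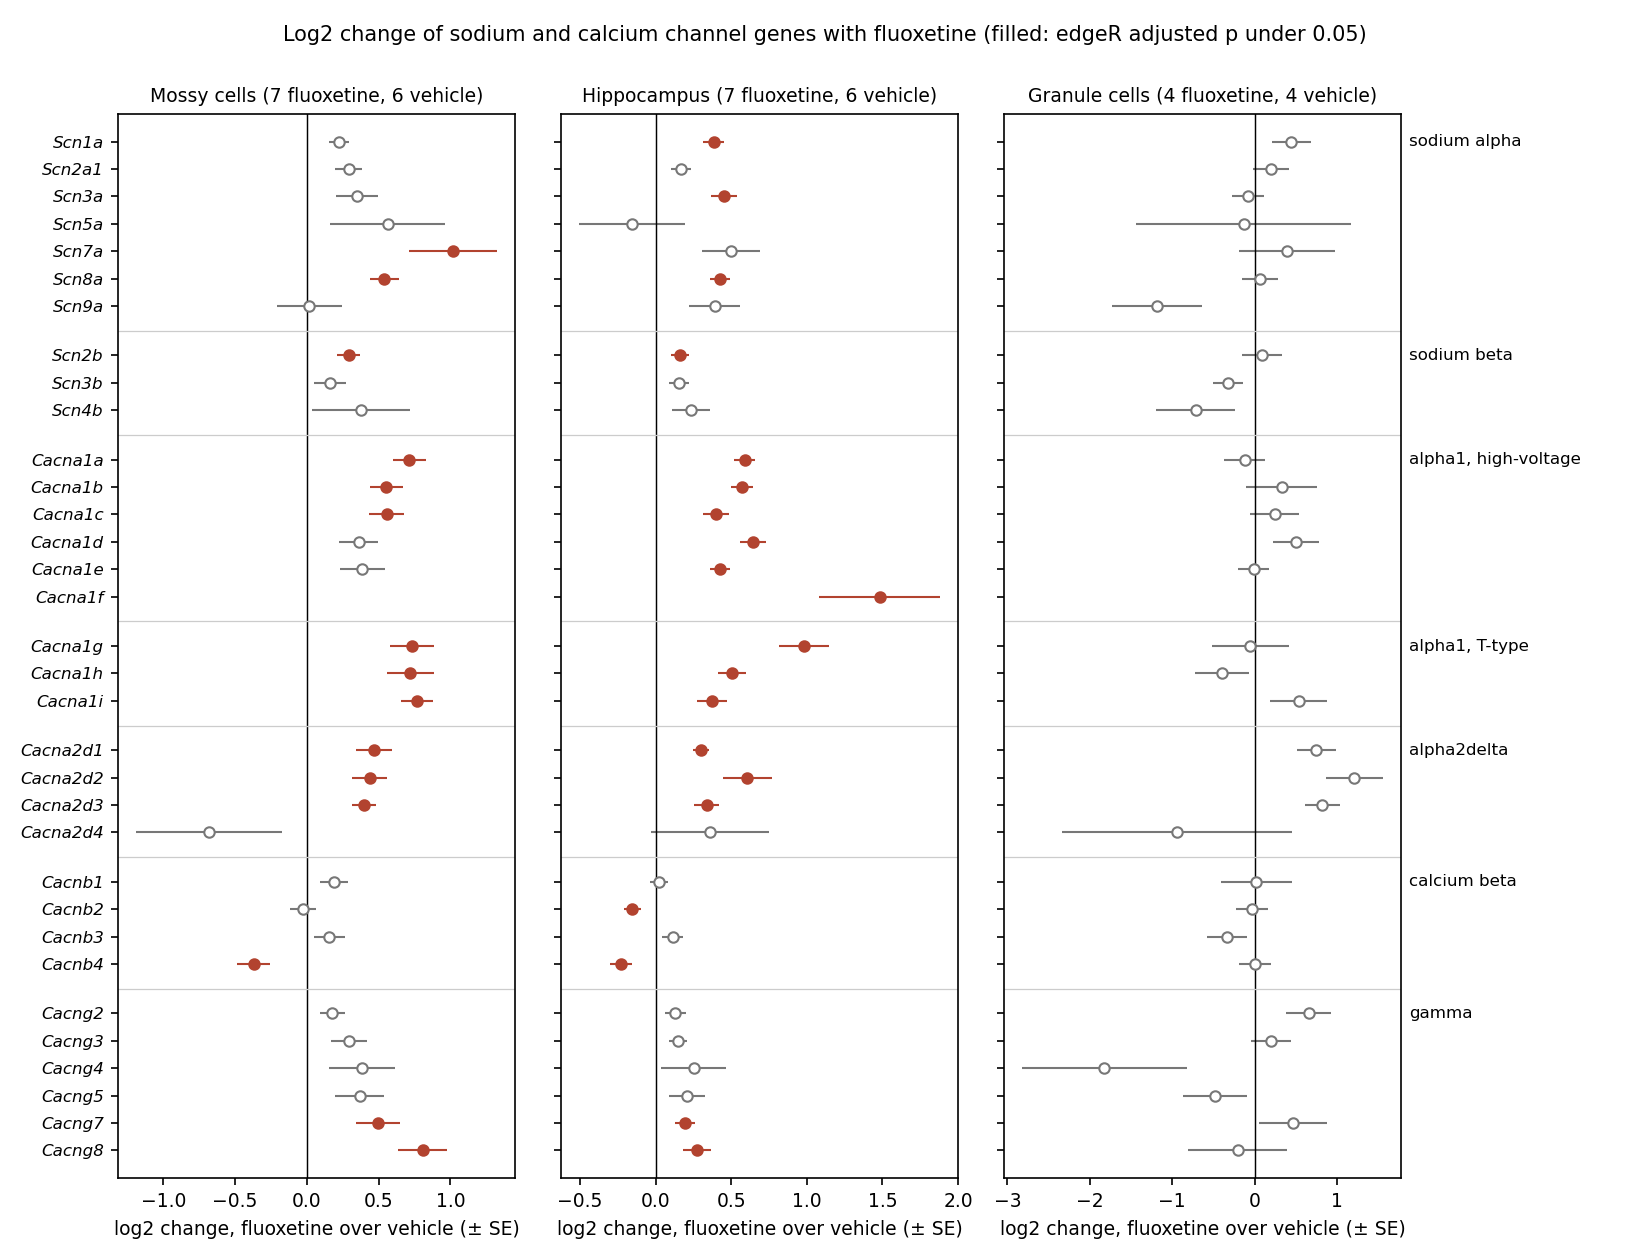
Log2 change of each tested channel gene, fluoxetine over vehicle, with its standard error, for mossy cells, hippocampus and granule cells (horizontal axes, which differ in range), grouped by role down the page. Filled points passed an adjusted p of 0.05 in edgeR, as 15 of those drawn did in mossy cells, 20 in hippocampus and 0 in granule cells.

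Among sodium channel pores, Scn8a encodes the channel of the axon initial segment and of nodes of Ranvier. It was at 203 CPM in the lowest, 264 in the median and 362 in the highest of the fluoxetine libraries, against 179, 190.1 and 195 CPM in the vehicle libraries. The groups did not overlap, and the vehicle libraries lay close together. Its log2 change was 0.54 ± 0.10 (SE, edgeR adjusted p = 0.00289). Scn7a encodes a relative of these channels that senses extracellular sodium rather than voltage, and it was scarce. It had 1.77, 3.5 and 5.64 CPM with fluoxetine at the lowest, median and highest, against 1.14, 1.63 and 2.46 CPM with vehicle. The groups overlapped, with 5 of 7 fluoxetine libraries above all vehicle libraries. Its change of 1.02 ± 0.31 (SE, edgeR adjusted p = 0.0407) lost its call in 9 of 13 fits without 1 library. Scn1a, whose loss causes Dravet syndrome, was at 98.8, 109 and 115 CPM with fluoxetine and 83, 92.6 and 97.6 CPM with vehicle. All fluoxetine libraries lay above all vehicle libraries, but the change of 0.22 did not pass (edgeR adjusted p = 0.0554).

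Sodium beta subunits are also adhesion molecules. Scn2b, whose product is joined to the pore by a disulfide bond, had 235, 272 and 320.4 CPM at the lowest, median and highest with fluoxetine and 196, 219 and 244 CPM with vehicle. In all, 6 of 7 fluoxetine libraries exceeded the vehicle group. Its change of 0.29 ± 0.08 (SE, edgeR adjusted p = 0.0289) was lost in 7 of 13 fits without 1 library.

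Of the high-voltage-activated pores, Cacna1a, the P/Q-type channel of fast transmitter release, was at 76.7, 99.8 and 135 CPM with fluoxetine, against 51.1, 63 and 74.1 CPM with vehicle, again as lowest, median and highest. No fluoxetine library fell in the vehicle range, and the change was 0.71 ± 0.11 (SE, edgeR adjusted p = 0.00124). Cacna1b, the N-type channel that shares this presynaptic role, was at 54.8, 73.2 and 90.1 CPM with fluoxetine and 41.5, 51.2 and 57.9 CPM with vehicle. The lowest fluoxetine library lay inside the vehicle range. The change was 0.55 ± 0.11 (SE, edgeR adjusted p = 0.00477). Cacna1c, the main neuronal L-type channel, which couples activity to transcription, had 52.7, 55.7 and 93.1 CPM with fluoxetine, against 37.3, 43 and 48.4 CPM with vehicle. The groups were apart, with fluoxetine library 4 well above the rest of its group, and the change was 0.56 ± 0.12 (SE, edgeR adjusted p = 0.00752). Cacna1d (0.36, adjusted p = 0.099) and the R-type Cacna1e (0.39, adjusted p = 0.135) did not pass in edgeR.

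T-type channels open near the resting potential and support burst firing. Cacna1i was at 37.2, 45.9 and 60.3 CPM at the lowest, median and highest of the fluoxetine libraries, against 23.2, 27.4 and 29.7 CPM with vehicle. The groups were separated by more than the whole vehicle range. Its change was 0.77 ± 0.11 (SE, edgeR adjusted p = 0.00076), the smallest p of the 33. Cacna1g was at 32, 49.4 and 74.4 CPM with fluoxetine and 27, 28.3 and 38.4 CPM with vehicle. All but 1 fluoxetine library lay above the vehicle group, for a change of 0.73 ± 0.15 (SE, edgeR adjusted p = 0.00528). Cacna1h had 19.3, 36.3 and 47 CPM with fluoxetine, against 17.2, 20.3 and 29.4 CPM with vehicle. Here too 1 fluoxetine library lay inside the vehicle range, and the change was 0.72 ± 0.17 (SE, edgeR adjusted p = 0.00921).

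Alpha2delta subunits raise the number of channels at the membrane, and the products of Cacna2d1 and Cacna2d2 bind gabapentin. Cacna2d3 was at 95.4, 104 and 121 CPM with fluoxetine, against 72, 79.1 and 92.4 CPM with vehicle, as lowest, median and highest. The groups did not overlap, and the change was 0.40 ± 0.08 (SE, edgeR adjusted p = 0.00528). Cacna2d1 was at 84.7, 109 and 154 CPM with fluoxetine and 76.5, 80.1 and 95.7 CPM with vehicle. The groups overlapped in 3 fluoxetine libraries, and the change was 0.47 ± 0.13 (SE, edgeR adjusted p = 0.022). Cacna2d2 had 72.5, 100.3 and 124 CPM with fluoxetine, against 60, 68.3 and 94.1 CPM with vehicle. It overlapped to the same extent, at 0.44 ± 0.12 (SE, edgeR adjusted p = 0.0283), and was at 0.28 after a correction for GC content and length (edgeR adjusted p = 0.123). The Cacna2d1 call was lost in 5 and the Cacna2d2 call in 6 of 13 fits without 1 library. Cacna2d4, best known from retina, had medians of 0.628 CPM with fluoxetine and 1.1 CPM with vehicle and did not pass.

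Calcium channel beta subunits bind the alpha1 pore inside the cell and protect it from degradation. Cacnb4 was at 159, 230.1 and 309.7 CPM with fluoxetine, against 278, 289 and 361 CPM with vehicle, as lowest, median and highest. In 6 of 7 fluoxetine libraries it lay below the whole vehicle group, and 1 library was within it. The change was -0.37 ± 0.11 (SE, edgeR adjusted p = 0.0463), and the call was lost in 11 of 13 fits without 1 library. Of its exonic bases 16% overlap A430018G15Rik on the opposite strand, and without a stated strand setting the reads of both cannot be told apart. The other 3 beta genes had changes between -0.03 and 0.19, and none passed.

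Gamma subunits of this tissue mostly escort AMPA receptors to synapses. Cacng8, an AMPA receptor auxiliary subunit abundant in hippocampus, was at 13.4, 22.4 and 31.9 CPM with fluoxetine, against 10.5, 12.1 and 17 CPM with vehicle, as lowest, median and highest. The lowest fluoxetine library fell in the vehicle range, and the change was 0.81 ± 0.17 (SE, edgeR adjusted p = 0.00556). Cacng7 had 26.2, 38.6 and 50.5 CPM with fluoxetine and 19.6, 25.6 and 31.1 CPM with vehicle. The groups overlapped in 3 fluoxetine libraries, and its change of 0.50 ± 0.15 (SE, edgeR adjusted p = 0.0476) was lost in 9 of 13 fits without 1 library. Cacng2, which encodes stargazin, was at 0.18 (edgeR adjusted p = 0.231), and Cacng3, Cacng4 and Cacng5 at 0.29 to 0.38 did not pass either.

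Markers of other cells moved in the same libraries. Microglia markers summed to 14.6 to 95.4 CPM in fluoxetine libraries and 7.84 to 12.6 CPM in vehicle libraries (4 of 7 higher), and astrocyte markers to 260 to 985 and 228 to 285 CPM (2 of 8 higher). Interneuron markers summed to 2621 to 4533 and 2741 to 3806 CPM (2 of 9 higher, 1 lower) and CA3 pyramidal markers to 160 to 513 and 154 to 175 CPM (1 of 5 higher). Choroid plexus markers summed to 3.16 to 11.2 and 3.66 to 245 CPM (1 of 2 lower), and mossy cell markers to 708 to 921 and 567 to 676 CPM (4 of 8 higher). Of the other lists, 2 of 9 oligodendrocyte markers and 1 of 6 CA1 and CA2 markers were higher, 1 of 8 granule cell markers was lower and 0 of 5 endothelial and mural markers passed. No library was at 0 for Csf1r, Aqp4, Sst or Ttr in the counts of these lists. Rn45s had a median of 195254 CPM with fluoxetine and 150670 CPM with vehicle, and Lars2, a gene whose reads often stem from ribosomal RNA, 29069 and 19138 CPM. With both removed 15 channel genes were called, and Cacng7 was not (0.49, edgeR adjusted p = 0.0503). The part of these RNAs in the channel changes was not tested.

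The second comparison set fluoxetine against vehicle in hippocampus. The high-voltage pores were higher here without exception, in 6 of 6 genes tested, along with all 3 T-type genes, 3 alpha2delta genes and the sodium channels Scn8a, Scn1a and Scn3a. Of the 4 calcium channel beta genes, Cacnb4 and Cacnb2 were lower and the other 2 did not pass. Altogether 19 of 34 genes were called higher, where 15.5% of 15596 genes were, and 2 lower, where 14.7% were, 30.2% in all. The median log2 change was 0.32 over the channel genes and 0.00128 over all genes. All fluoxetine libraries lay above all vehicle libraries in 9 of 34, against 4.51% of genes, and below them in 1, against 4.73%. The other roles had 3 of 7 sodium alpha, 2 of 4 sodium beta and 2 of 6 gamma genes higher. The count of 21 calls fell to 10 without vehicle libraries 1, 2 and 4, with a median of 0.24. That count too stands without the share of all genes called in the same fit.

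Scn8a had 367, 398 and 443 CPM at the lowest, median and highest with fluoxetine, against 241, 309 and 321 CPM with vehicle. The groups did not overlap, and the change was 0.43 ± 0.07 (SE, edgeR adjusted p = 0.000693). Scn1a was at 96, 108 and 114 CPM with fluoxetine and 66.2, 84.1 and 92.4 CPM with vehicle. It too was without overlap, at 0.39 ± 0.07 (SE, edgeR adjusted p = 0.00126). Scn3a, the sodium channel of embryonic brain that persists at lower levels, was at 53, 56.4 and 68.7 CPM with fluoxetine, against 35.9, 43.2 and 53.3 CPM with vehicle. The groups met at a single fluoxetine library, and the change was 0.45 ± 0.09 (SE, edgeR adjusted p = 0.00195). Scn2a1, the sodium channel of unmyelinated axons, did not pass in either source, at 0.29 in mossy cells (edgeR adjusted p = 0.0577) and 0.17 in hippocampus (edgeR adjusted p = 0.069).

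Among sodium beta genes, Scn2b had 196, 231 and 251 CPM at the lowest, median and highest with fluoxetine and 180.3, 204 and 214 CPM with vehicle. It overlapped in 1 library, and its change of 0.16 ± 0.06 (SE, edgeR adjusted p = 0.0463) was lost in 9 of 13 fits without 1 library.

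Among the high-voltage pores, Cacna1a was at 85, 90.7 and 107 CPM at the lowest, median and highest with fluoxetine, against 52.7, 62.8 and 69.4 CPM with vehicle. Cacna1b was at 42, 47.2 and 54.9 CPM with fluoxetine and 26.3, 32.7 and 35.8 CPM with vehicle. Cacna1d, an L-type channel that opens at more negative voltages than Cacna1c, had 34.3, 40.9 and 44.8 CPM with fluoxetine, against 21, 25.7 and 29.4 CPM with vehicle. In none of these 3 genes did a fluoxetine library reach down into the vehicle range. The changes were 0.59 ± 0.07 for Cacna1a, 0.57 ± 0.08 for Cacna1b and 0.65 ± 0.09 for Cacna1d (SE, edgeR adjusted p = 0.000169, 0.000324 and 0.000343), and the 3 held their calls in all 13 fits without 1 library. Of the exonic bases of Cacna1d, 4.67% overlap Chdh on the opposite strand. Cacna1c at 0.40 (edgeR adjusted p = 0.00375) and Cacna1e at 0.43 (edgeR adjusted p = 0.000615) were without overlap as well. Cacna1f, the L-type channel of the retina, was called at 1.48 (edgeR adjusted p = 0.0112) and lost its call in 2 of 11 fits under other settings, on levels of 0.193 to 1.17 CPM with fluoxetine and 0.164 to 0.368 CPM with vehicle.

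Cacna1g had the largest change among the T-type genes. It was at 26.8, 34.2 and 57.3 CPM at the lowest, median and highest with fluoxetine, against 12.3, 19.2 and 22.5 CPM with vehicle. All fluoxetine libraries were above the vehicle group, and the change was 0.98 ± 0.17 (SE, edgeR adjusted p = 0.00109). Cacna1h was at 43.7, 56.6 and 61.9 CPM with fluoxetine and 32.3, 40.3 and 47.9 CPM with vehicle. Cacna1i had 32.2, 35.4 and 46.2 CPM with fluoxetine, against 20.9, 29.2 and 32.9 CPM with vehicle. Both overlapped in 1 fluoxetine library, with changes of 0.50 ± 0.09 and 0.37 ± 0.10 (SE, edgeR adjusted p = 0.00159 and 0.0105). After the GC content and length correction Cacna1i was at 0.17 in hippocampus (edgeR adjusted p = 0.0902).

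In the alpha2delta class, Cacna2d1 was at 165, 170.1 and 189 CPM at the lowest, median and highest with fluoxetine, against 127, 139.9 and 152 CPM with vehicle. The groups did not overlap, at 0.30 ± 0.05 (SE, edgeR adjusted p = 0.00125). Cacna2d2 had 13.4, 18.5 and 31.6 CPM with fluoxetine and 10.3, 12.8 and 13.4 CPM with vehicle. Fluoxetine library 2 stood far above its group and 1 library lay in the vehicle range, for a change of 0.61 ± 0.16 (SE, edgeR adjusted p = 0.00948) that was 0.44 at the least without 1 library. Cacna2d3 was at 47.5, 57.7 and 65.3 CPM with fluoxetine, against 40.3, 43.3 and 49.3 CPM with vehicle. It overlapped in 1 library, at 0.34 ± 0.08 (SE, edgeR adjusted p = 0.00633).

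Both beta genes that fell are major partners of brain calcium channels. Cacnb4 was at 208, 263 and 278 CPM at the lowest, median and highest with fluoxetine, against 279, 289 and 317 CPM with vehicle. Every fluoxetine library lay below every vehicle library, though by little, and the change was -0.23 ± 0.07 (SE, edgeR adjusted p = 0.0249, lost in 2 of 13 fits without 1 library). Cacnb2 was at 102, 112 and 131 CPM with fluoxetine and 121, 127 and 130.4 CPM with vehicle. In 1 fluoxetine library it was above the whole vehicle group and in the other 6 below it. The change of -0.15 ± 0.06 (SE, edgeR adjusted p = 0.0462) was lost in 12 of 13 fits without 1 library, and with DESeq2 size factors or upper quartile scaling. Cacnb1 and Cacnb3 were at 0.02 and 0.11 and did not pass.

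The gamma genes that rose were those that rose in mossy cells. Cacng7 was at 38.5, 43.9 and 52 CPM at the lowest, median and highest with fluoxetine, against 36.1, 38.6 and 41.1 CPM with vehicle. Cacng8 had 15.7, 17.1 and 21.1 CPM with fluoxetine and 13.4, 13.9 and 17.4 CPM with vehicle. The groups overlapped in both, by 1 fluoxetine library for Cacng7 and 4 for Cacng8. Their changes were 0.19 ± 0.07 and 0.27 ± 0.09 (SE, edgeR adjusted p = 0.0344 and 0.0353), and the calls were lost in 3 and 7 of 13 fits without 1 library.

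**Figure D2:**
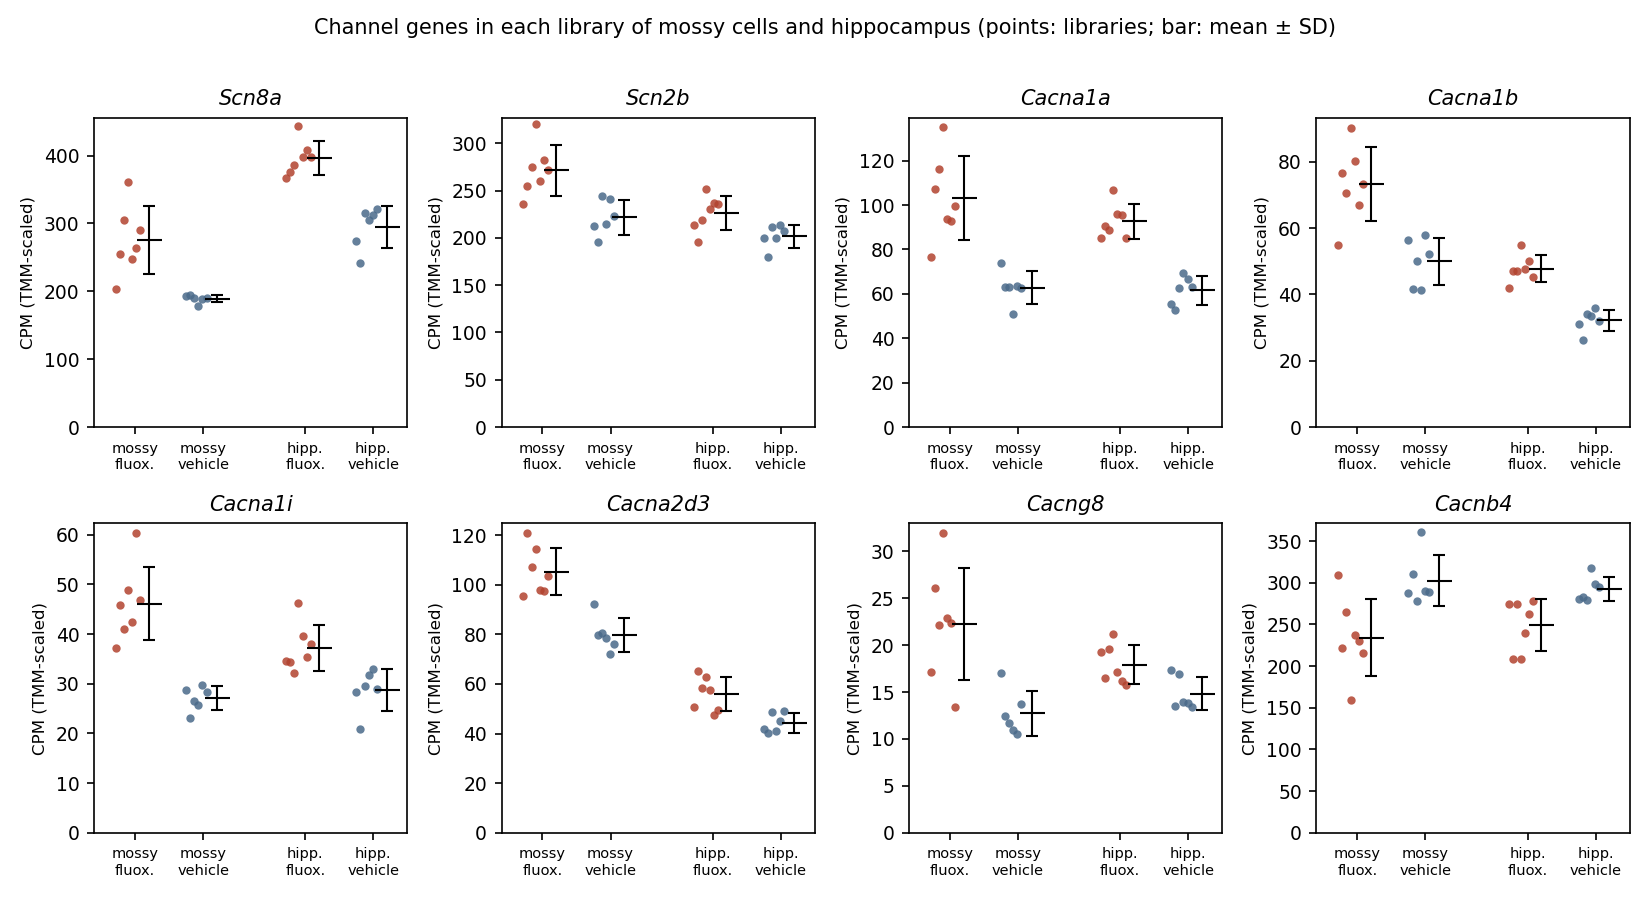
Level of 8 channel genes in every library, in CPM scaled by TMM within each source (vertical axes from 0), for fluoxetine and vehicle in mossy cells and in hippocampus; points are libraries and bars the mean ± SD (n = 7 fluoxetine and 6 vehicle). The fluoxetine points of Scn8a, Cacna1a and of Cacna1i in mossy cells lie above the vehicle points, and those of Cacnb4 in hippocampus lie below them.

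In hippocampus too, markers of other cells moved. Microglia markers summed to 53.3 to 261 CPM with fluoxetine and 35.1 to 43 CPM with vehicle (7 of 8 higher), and astrocyte markers to 1673 to 5658 and 1186 to 1492 CPM (6 of 8 higher). Choroid plexus markers summed to 23 to 118 and 23.3 to 5778 CPM (4 of 4 lower), with vehicle libraries 1, 2 and 4 at 1582 CPM or more. Granule cell markers summed to 512 to 623 and 637 to 691 CPM (1 of 8 higher, 3 lower), interneuron markers to 505 to 588 and 548 to 610 CPM (3 of 9 higher, 3 lower) and CA3 pyramidal markers to 431 to 588 and 355 to 449 CPM (2 of 5 higher). Mossy cell markers had 4 of 8 higher, CA1 and CA2 markers 2 of 6 lower, endothelial and mural markers 1 of 7 lower and oligodendrocyte markers 0 of 9 called. Their part in the channel changes was not tested.

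The same direction was called in both sources for 15 genes, which is 93.8% of the 16 called in mossy cells and 71.4% of the 21 called in hippocampus. Over all genes 940 were called the same way in both, 70.9% of the 1325 called in mossy cells and 20% of the 4705 called in hippocampus. They included Scn8a, Scn2b, Cacna1a, Cacna1b, Cacna1c, the 3 T-type genes, Cacna2d1, Cacna2d2, Cacna2d3, Cacng7 and Cacng8, all higher, and Cacnb4, lower. Same-numbered libraries of these sources vary together, so the sources are not independent of each other. Scn7a passed in mossy cells alone, and Scn1a, Scn3a, Cacna1d, Cacna1e, Cacna1f and Cacnb2 in hippocampus alone. The difference between the fluoxetine effects of mossy cells and hippocampus was tested itself and passed in 0 of 34 genes in edgeR, where 0.044% of 15922 genes passed, 0.00628% higher in mossy cells and 0.0377% lower. At an unadjusted p under 0.05 there were 4 of 34 channel genes and 1790 of all 15922, so the share was near that of all genes. DESeq2 called 0 and limma-voom 1.

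Within the groups the shift was not carried by 1 library. Taking each library's median over the tested channel genes as a log2 difference from the mean of the vehicle libraries, mossy-cell fluoxetine libraries lay between 0.11 and 0.66 and vehicle libraries between -0.08 and 0.13. In hippocampus the fluoxetine libraries lay between 0.24 and 0.49 and the vehicle libraries between -0.16 and 0.08. Fluoxetine library 4 was the highest in both sources. It held the highest value of its group for 16 of 33 genes in mossy cells and 17 of 34 in hippocampus, and it also held the most microglia and astrocyte RNA of its group in both. Mossy-cell fluoxetine library 1 was the lowest of its group for 15 genes, and hippocampus vehicle library 2 for 24. Summed over all channel genes, the level was 2565 to 3475 CPM with fluoxetine and 2337 to 2555 CPM with vehicle in mossy cells, and 3131 to 3575 CPM against 2464 to 2963 CPM in hippocampus.

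**Figure D3:**
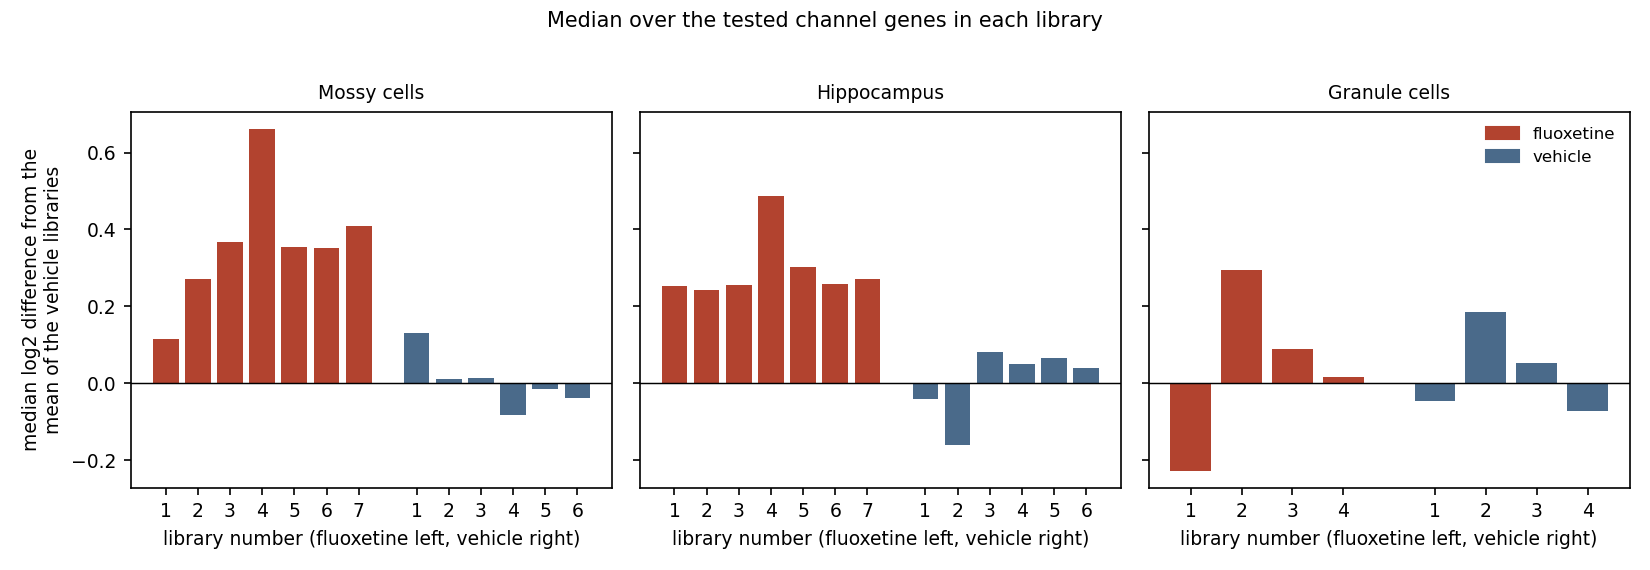
Median over the tested channel genes of the log2 difference from the mean of the vehicle libraries (vertical axis), 1 bar per library, fluoxetine left and vehicle right of each panel. In mossy cells 6 of 7 and in hippocampus 7 of 7 fluoxetine bars stand above all vehicle bars, while in granule cells both groups spread on either side of 0.

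In mossy cells the change varied with base composition among these genes, as it did among all genes. Across the 33 tested in mossy cells, the log2 change correlated with transcript GC content at Pearson r = 0.353 and Spearman rho = 0.427, against 0.244 and 0.296 over 13908 genes. In hippocampus the correlation with GC content was Spearman rho = 0.0173 across 34 genes, against 0.123 over all genes. That with transcript length was Spearman rho = 0.499, and Pearson r = 0.307 with log length, against 0.167 and 0.0936 over all. In granule cells Spearman rho with GC content was -0.162 across 33 genes and 0.0172 over all. Genes share libraries and are no replicates, so these are descriptions. After a correction for GC content and length, 15 genes were called in mossy cells, 13 of them among the 16, and 18 in hippocampus. The medians were 0.30 and 0.25. These counts stand without the share of all genes called in the same fits, so an excess of channel genes cannot be read from them. Cacna2d2, Cacnb4 and Cacng7 lost their calls in mossy cells and Scn2b, Cacna1i and Cacng8 theirs in hippocampus. Scn1a at 0.23 and Scn2a1 at 0.28, not called before, passed in mossy cells after the correction (edgeR adjusted p = 0.0437 and 0.0339).

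In granule cells none of the 33 genes tested was called in edgeR, nor was any of 14236 genes, which is 0% against 4 libraries a group. DESeq2 called 77 genes and limma-voom 0, and in both 0 of them were channel genes. At an unadjusted p under 0.05 there were 5 channel genes in edgeR (1056 genes in all), 5 in DESeq2 and 3 in limma-voom. The median change was 0.02 over the channel genes and 0.00948 over all. All fluoxetine libraries lay above all vehicle libraries in 4 of 33, against 2.49% of genes, and below them in 2, against 1.9%. The alpha2delta genes Cacna2d1, Cacna2d2 and Cacna2d3 and the gamma gene Cacng2 made up the 4, and Scn9a and Scn3b the 2.

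Cacna2d1 was at 249, 234, 347 and 492 CPM in granule-cell fluoxetine libraries 1 to 4 and at 190.2, 211, 196 and 189 CPM in vehicle libraries 1 to 4. The vehicle libraries lay within a narrow band that the fluoxetine libraries all exceeded, with libraries 3 and 4 furthest. The change was 0.75 ± 0.23 (SE, edgeR adjusted p = 0.451). Cacna2d2 had 23.6, 19.6, 33.3 and 19.5 CPM with fluoxetine and 11.9, 5.95, 13.9 and 9.71 CPM with vehicle. It did not overlap either, at 1.21 ± 0.35 (SE, edgeR adjusted p = 0.408). Cacna2d3 was at 97.9, 74.9, 88.4 and 77.1 CPM with fluoxetine and 54.3, 54.8, 45.1 and 37.7 CPM with vehicle. All fluoxetine values were again the higher ones, at 0.82 ± 0.21 (SE, edgeR adjusted p = 0.362).

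Cacng2 was at 45.5, 31.3, 33.5 and 53 CPM in granule-cell fluoxetine libraries and 23.3, 30.7, 31.1 and 18.7 CPM in vehicle libraries, apart by less than 1 CPM, at 0.65 ± 0.27 (SE, edgeR adjusted p = 0.633). Scn9a, the sodium channel known from pain-sensing neurons, was scarce, at 2.27, 3.62, 3.19 and 2.1 CPM with fluoxetine and 8.01, 9.63, 4.16 and 3.69 CPM with vehicle. The groups did not overlap, and the change was -1.19 ± 0.55 (SE, edgeR adjusted p = 0.67). Scn3b, a sodium beta gene, had 167, 182, 164 and 185 CPM with fluoxetine and 255, 201, 186 and 235 CPM with vehicle. It was lower in all fluoxetine libraries but narrowly so, at -0.33 ± 0.18 (SE, edgeR adjusted p = 0.707). Of the 15 genes called the same way in mossy cells and hippocampus, 11 were above 0 in granule cells, where 50.9% of all genes were. The 11 include Cacnb4, which was lower in the other sources and in granule cells was at 0.00058, next to no change (edgeR adjusted p = 0.999). Cacna1a and Cacna1g, both higher in the other sources, were at -0.12 ± 0.25 and -0.05 ± 0.47 (SE) in granule cells, with 95% intervals of -0.61 to 0.37 and -0.97 to 0.86. Granule cell markers summed to 1133 to 1207 CPM with fluoxetine and 1432 to 1604 CPM with vehicle. Astrocyte markers summed to 1144 to 1571 and 777 to 1030 CPM, and microglia markers to 74.6 to 108 and 45.2 to 71 CPM. CA1 and CA2 pyramidal markers summed to 414 to 708 and 580 to 1692 CPM. For CA3 pyramidal markers the ranges were 645 to 735 and 520 to 694 CPM. Mossy cell markers summed to 558 to 859 and 457 to 574 CPM, and interneuron markers to 564 to 1126 and 546 to 812 CPM. Oligodendrocyte markers summed to 566 to 746 and 513 to 598 CPM, and choroid plexus markers to 45.5 to 1327 and 43 to 644 CPM. Endothelial and mural markers summed to 29.9 to 65.8 and 10.7 to 124 CPM. Their part in the channel values was not tested.

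**Figure D4:**
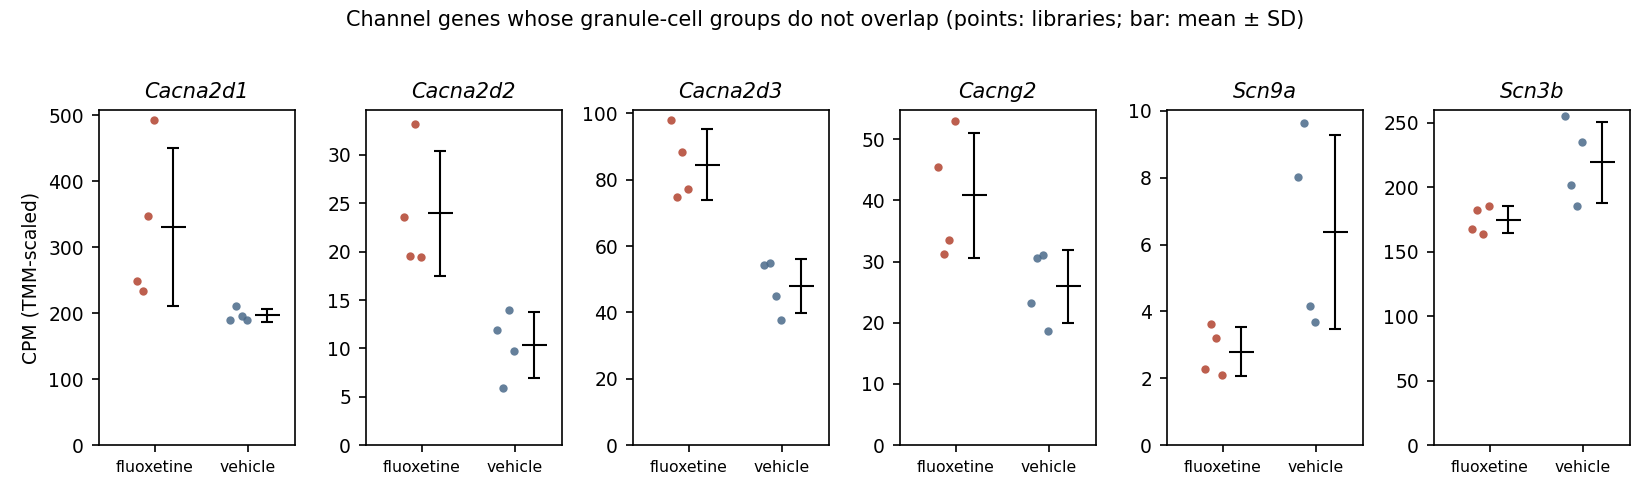
Level in each granule-cell library of the 6 channel genes whose groups do not overlap, in CPM scaled by TMM (vertical axes from 0), fluoxetine left and vehicle right; points are libraries and bars the mean ± SD (n = 4 each). The 3 alpha2delta genes and Cacng2 are higher and Scn9a and Scn3b lower in all fluoxetine libraries, and none passed adjustment over all genes.

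The differences between granule cells and the other sources were tested as such. Against mossy cells 0 of 34 genes passed in edgeR (0.181% of 15444 genes did, 0.0518% higher in granule cells and 0.13% lower), and 10 of 34 were at an unadjusted p under 0.05, as were 2151 of all genes. DESeq2 called 2 channel genes, where it called 1.79% of all genes, and limma-voom 0. Against hippocampus 1 of 35 passed, lower in granule cells, where 0.868% of 16124 genes passed lower, 1.12% higher and 1.98% in either direction. That gene was Scn9a, whose fluoxetine effect was lower in granule cells by 1.57 ± 0.41 (SE, edgeR adjusted p = 0.0471). At an unadjusted p under 0.05 in edgeR there were 15 of 35 channel genes against hippocampus, and 3188 of all 16124. In hippocampus Scn9a was at 4.43, 6.12 and 6.99 CPM at the lowest, median and highest with fluoxetine, against 2.59, 4.59 and 6.45 CPM with vehicle, and the groups overlapped. The call was lost in 18 of 21 fits without 1 library, without a filter on low counts and with limma-voom, while DESeq2 called 9 of 35 channel genes, all lower in granule cells, where it called 6.43% of all genes.

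Vehicle libraries show how the sources differ in channel makeup. Alpha2delta genes stood in another order per kb in mossy cells than in the other sources. The length used is that of the longest GENCODE M21 transcript of a gene. With levels per kb of transcript, scaled over all 34 libraries, Cacna2d1 led in granule cells at 24.7 ± 1.6 CPM per kb, before Cacna2d3 at 12.1 ± 2.1 and Cacna2d2 at 1.67 ± 0.55 (SD, n = 4). In mossy cells Cacna2d3 led at 24.3 ± 2.2, followed by Cacna2d2 at 13.7 ± 2.5 and Cacna2d1 at 12.5 ± 1.2 CPM per kb, the last pair within their spread (SD, n = 6). Without division by length Cacna2d3 did not lead in mossy cells. The vehicle libraries then overlapped, at 76.5 to 95.7 CPM for Cacna2d1, 72 to 92.4 CPM for Cacna2d3 and 60 to 94.1 CPM for Cacna2d2. Hippocampus had the granule-cell order, at 17.4 ± 1.1, 11.1 ± 1 and 1.95 ± 0.21 CPM per kb (SD, n = 6). Cacna2d2 thus made up 4.37% ± 1.49 of the class for granule cells, 26.9% ± 2.7 for mossy cells and 6.42% ± 0.771 for hippocampus. Interneuron markers summed to 546 to 812, 2741 to 3806 and 548 to 610 CPM in the vehicle libraries of these sources. Their part in the makeup was not tested.

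T-type genes changed order likewise. Cacna1h led in granule cells at 4.51 ± 1.5 CPM per kb, with Cacna1i at 1.52 ± 0.53 and Cacna1g at 1.28 ± 0.34, the last pair within their spread. In mossy cells Cacna1g led at 4.06 ± 0.61, with Cacna1i at 3.11 ± 0.28 and Cacna1h at 2.95 ± 0.59 CPM per kb, again the last pair within their spread. In hippocampus Cacna1h, Cacna1i and Cacna1g were at 4.44 ± 0.64, 2.71 ± 0.4 and 2 ± 0.41 CPM per kb.

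Among sodium pores Scn8a led in granule cells at 36.1 ± 6.7 CPM per kb and Scn2a1 followed at 27.1 ± 7.2, which overlap within their SDs. Scn2a1 led in mossy cells, at 30.3 ± 1.2 against 18.6 ± 0.67 CPM per kb for Scn8a, and in hippocampus, at 30.5 ± 2.3 against 23.8 ± 2.5. Without division by length the hippocampus vehicle libraries overlapped, at 263 to 328 CPM for Scn2a1 and 241 to 321 CPM for Scn8a. Cacna1e was the leading high-voltage pore in all 3 sources, at 60.1% ± 3.43 of its class for granule cells, 38.1% ± 2.65 for mossy cells and 55.6% ± 0.545 for hippocampus. Per kb, the calcium beta gene Cacnb3 was at 50.5 ± 17 CPM in granule cells and 71.7 ± 6.7 CPM in mossy cells, and Scn3b at 49.2 ± 6.3 CPM in granule cells. At the other end, the muscle and sensory neuron genes Scn4a, Scn10a, Scn11a, Cacna1s, Cacng1 and Cacng6 had 8 to 197 counts over all 34 libraries and were tested in no fluoxetine comparison.

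**Figure D5:**
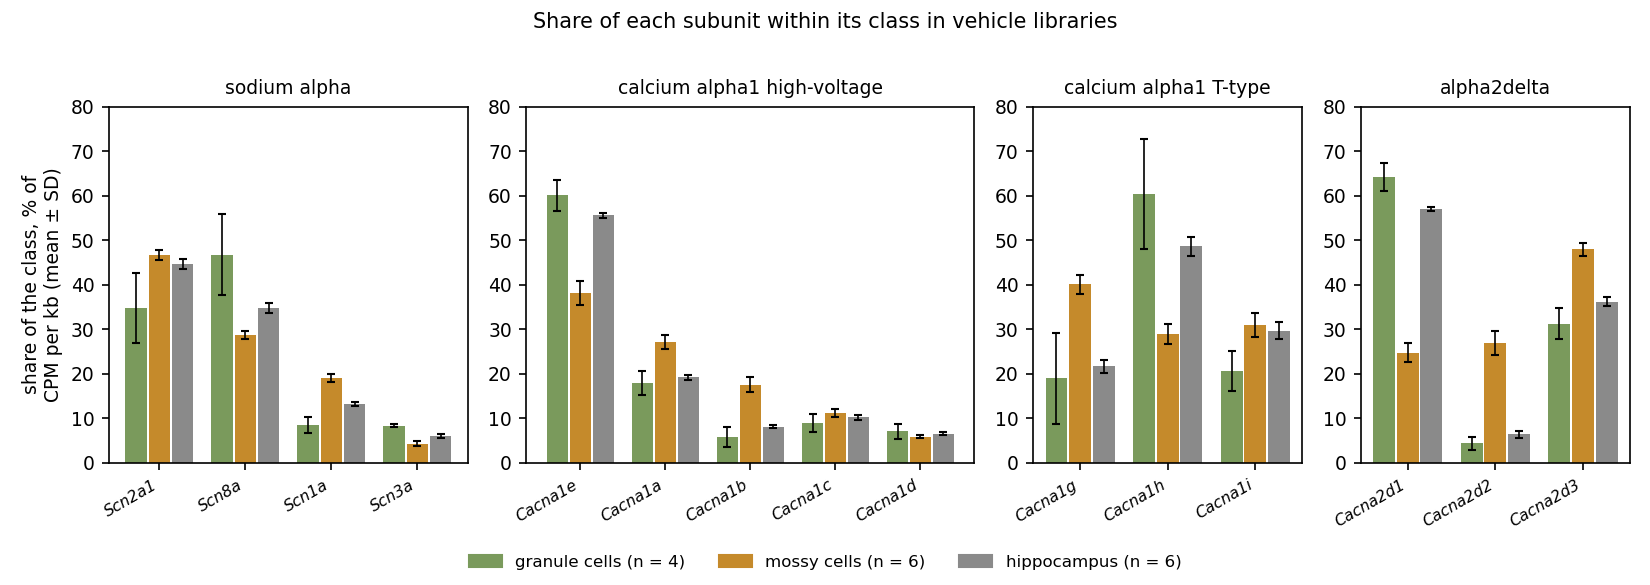
Share of each subunit in the summed level of its class (vertical axis, percent of CPM per kb, mean ± SD) in vehicle libraries of granule cells, mossy cells and hippocampus, for 4 classes. Cacna2d2 reaches 26.9% in mossy-cell libraries, which also hold the most interneuron marker RNA, and stays under 7% in the other sources. Cacna1g leads its class in mossy-cell libraries alone.

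Between mossy cells and hippocampus with vehicle, 15 of 34 channel genes were called higher in mossy cells, where 31.3% of all genes were, and 10 lower, where 32.8% were, 64% in all. Cacna2d2 was 2.81 ± 0.16 higher on the log2 scale (SE, edgeR adjusted p = 4.59e-15), with 11.5 to 18.4 CPM per kb in mossy cells and 1.64 to 2.14 in hippocampus. Among genes at an average log2 CPM of at least 1, Cacna2d3 (1.14), Cacna1g (1.02) and the AMPA receptor partner Cacng4 (0.98) came next (edgeR adjusted p = 1.13e-12, 1.22e-05 and 0.000477). Cacna1e (-0.73), Scn3b (-0.62), Cacna1h (-0.59) and Scn3a (-0.57) were lower in mossy cells (edgeR adjusted p = 2.73e-05, 3.45e-06, 0.000855 and 0.00028), the last not after the GC content and length correction. Source, table and library series cannot be told apart. Interneuron markers were higher in mossy cells in 8 of 9 and lower in 1, and mossy cell markers were higher in 6 of 8 and lower in 2. Also higher in mossy cells were 2 of 6 CA1 and CA2, 1 of 5 CA3 and 1 of 9 oligodendrocyte markers. Lower in mossy cells were 7 of 8 microglia, 8 of 8 astrocyte, 8 of 9 oligodendrocyte, 5 of 5 choroid plexus, 7 of 7 endothelial and mural, 6 of 8 granule cell, 4 of 5 CA3 and 3 of 6 CA1 and CA2 markers. Their part in this contrast was not tested. With upper quartile scaling the median over all genes moved to -0.157, against -0.0415, and 11 channel genes were called higher and 10 lower.

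Between granule cells and mossy cells with vehicle, 7 of 34 were higher in granule cells, where 23.8% of all genes were, and 13 lower, where 22.4% were, 46.1% in all. Cacna2d2 was lower by 3.08 on the log2 scale, as -3.08 ± 0.23 (SE, edgeR adjusted p = 9.3e-11), with 0.973 to 2.26 CPM per kb in granule cells and 11.5 to 18.4 in mossy cells. Cacng4 (-2.01), Cacna1g (-1.70) and Cacna1b (-1.36) were lower too (edgeR adjusted p = 0.0013, 5.79e-05 and 0.000474). Scn3a (1.17), Cacna2d1 (0.94) and Scn8a (0.92) were higher in granule cells (edgeR adjusted p = 2.56e-06, 0.000118 and 2.74e-05), of which Cacna2d1 did not pass after the GC content and length correction. Scn7a at 1.22 (edgeR adjusted p = 0.0234) rested on granule-cell vehicle library 1, without which it was 0.67 (edgeR adjusted p = 0.218). Granule cell markers were higher in granule cells in 8 of 8, microglia and astrocyte markers in 6 of 8 each, oligodendrocyte markers in 7 of 9 and endothelial and mural markers in 5 of 7. Interneuron markers were lower in 8 of 9 and higher in 1, and mossy cell markers were lower in 4 of 8 and higher in 2. CA1 and CA2 markers had 3 of 6 higher and 2 lower, CA3 markers 2 of 5 higher and choroid plexus markers 1 of 5 higher. Their part in this contrast was not tested.

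Between granule cells and hippocampus with vehicle, 4 of 35 channel genes were higher in granule cells, where 16.5% of all genes were, and 4 lower, where 13.2% were, 29.7% in all. Scn3a (0.64), Scn8a (0.61), Cacnb2 (0.53) and Cacna2d1 (0.51) were the higher ones (edgeR adjusted p = 0.00033, 0.0016, 0.000803 and 0.00787). Cacng8 (-1.06), Cacna1i (-0.83) and Scn1a (-0.45) were among the lower ones (edgeR adjusted p = 0.0252, 0.00373 and 0.0199). Cacng8 lost its call without granule-cell vehicle library 1 or 4, and Scn1a without granule-cell vehicle library 1 or hippocampus vehicle library 3. With upper quartile scaling 4 were higher and 6 lower, and the share of higher among all calls was 40.3%, against 55.6%, with the median over all genes at -0.124, against -0.00481. Granule cell markers were higher in granule cells in 8 of 8. Among CA1 and CA2 markers 4 of 6 were lower and 1 was higher. Of the oligodendrocyte list, 3 of 9 were lower and 1 was higher. Astrocyte markers were lower in 3 of 8, while 1 of 5 CA3 markers was higher. The 9 interneuron genes split, 3 being above hippocampus and 3 below it. Microglia genes were above it in 2 of 8 and below it in 1. Endothelial and mural genes went each way in 1 of 7. Of 8 mossy cell genes, 1 was higher and 2 were lower, and 0 of 5 choroid plexus genes passed. The part of these markers in this contrast was not tested.

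Channel partners, a list of 34 genes for proteins that anchor, tether or tune these channels, had 6 of 31 higher and 0 lower with fluoxetine in mossy cells, 10 of 32 higher and 6 lower in hippocampus and 0 of 31 called in granule cells. Of all genes, 8.05% were higher and 1.26% lower in mossy cells and 15.5% higher and 14.7% lower in hippocampus, so the lower partners of hippocampus were near that background. Nfasc, which encodes the axon initial segment adhesion protein neurofascin, averaged 217 ± 40 CPM with fluoxetine and 144 ± 12 CPM with vehicle in mossy cells, and 204 ± 25 against 141 ± 10 CPM in hippocampus (SD). Its lowest fluoxetine library was above the highest vehicle library in both, at 163 against 159 CPM and 181 against 156 CPM. The changes were 0.59 and 0.53 (edgeR adjusted p = 0.00247 and 0.000376). Cnih2, which encodes an AMPA receptor chaperone, rose by 0.63 and Stac2, whose product binds L-type channels, by 0.55 in mossy cells (edgeR adjusted p = 0.00233 and 0.0103). In hippocampus Nrcam, a partner of neurofascin, rose by 0.34 and Ank3, the ankyrin that anchors sodium channels at the initial segment, by 0.31 (edgeR adjusted p = 0.00193 and 0.00228). The calcineurin subunit Ppp3ca fell by 0.33, the sodium channel regulator Fgf14 by 0.27 and the calmodulin gene Calm2 by 0.30 there (edgeR adjusted p = 0.00186, 0.0102 and 0.0122).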

How the data were processed

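The authors deposited gene counts for 34 TRAP libraries. The submitters' processing notes name the GRCm38 build, edgeR, HTSeq 0.7.2 and STAR 2.5.2b; annotation, strand setting and the handling of reads with several matches are not given in the sources used here. The counts were used as deposited. Totals ran between 14111950 and 44952269 a library, so a gene at 0 may hold up to 3 counts, which covers counting error only because PCR copies were not marked.

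Each source had its own table. Fluoxetine was tested within a source, and source contrasts and the differences between fluoxetine effects within joined pairs of tables, with edgeR 4.0.16 (filterByExpr, TMM, quasi-likelihood) in R 4.3.3 and Benjamini-Hochberg adjustment over all genes tested, called at 0.05. Alternatives were DESeq2 1.42.0, limma 3.58.1 voom, other scalings, no filter, a replicate block, a GC content and length correction (loess, span 0.3) and leaving out libraries; several of the last, as well as the correction, were chosen after seeing the data. The code was tested on simulated data.

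Symbols matched GENCODE M21 directly for 22753 of 24485 and through 1 RefSeq synonym for 930. Same-numbered libraries deviated together between mossy cells and hippocampus (correlation 0.221 to 0.455 with vehicle, 0.132 to 0.649 with fluoxetine) and between the granule-cell groups (0.147 to 0.361). Comparisons linked in this way are called paired below. The main fits held no term for the replicate number, so they treated these libraries as independent. The pairing entered only among the alternatives, as the replicate block and, for mossy cells with hippocampus, also as a replicate block within treatment.

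Named were up to 3 genes a role by smallest p in mossy cells and hippocampus, any called in a difference of effects, up to 4 a direction between sources at an average log2 CPM of 1 or more, and up to 3 partners a direction. Scn1a in mossy cells, Cacna1c, Cacna1e and Cacna1f in hippocampus, genes named as not passing and the granule-cell genes were chosen after their values were seen. The members, partner and marker lists were chosen with earlier results of these data known. Markers covered granule cells, mossy cells, interneurons, CA1 and CA2 and CA3 pyramidal cells, microglia, astrocytes, oligodendrocytes, choroid plexus and endothelial and mural cells. The values of 1 gene are not reported here; it stays in the tests and counts. Promoters are from RefSeq, GRCm38.p6. No 2 libraries agreed within sampling noise (chi-square per degree of freedom 6.74 to 391 over 84 pairs).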

Additional observations from a re-analysis of the deposited data

Results flagged for a closer look

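Of 120 groups of 4 to 7 libraries checked for a library far from the others, 9 were flagged (7.5%), where chance flags about 1 in 20 groups. In mossy cells these were Cacna1c in fluoxetine library 4 at 93.14 CPM (nearest 68.4), Cacnb2 in fluoxetine library 7 at 110.2 CPM (nearest 84.85), Scn8a in vehicle library 4 at 178.7 CPM (nearest 188.9) and Cacna2d2 in vehicle library 1 at 94.07 CPM (nearest 71.96). In hippocampus Cacna2d2 was at 31.55 CPM (nearest 19.54) and Scn9a at 4.426 CPM (nearest 5.884), both in fluoxetine library 2. In granule cells Cacna1a was at 74.88 CPM (nearest 46.92) and Cacna1d at 54.06 CPM (nearest 35.7), both in fluoxetine library 2, and Cacng7 at 90.35 CPM (nearest 40.76) in fluoxetine library 4. The fluoxetine effect on Scn9a differed between granule cells and hippocampus by -1.57 on the log2 scale in edgeR's interaction test.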

How the results depend on the processing

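No alternative tried reversed the direction of a called gene named by rule, nor of Cacna1c, Cacna1e or Cacna1f in hippocampus. The count of channel genes called with fluoxetine ranged, over fits without 1 library, 10 to 18 in mossy cells, 17 to 25 in hippocampus and 0 to 0 in granule cells. The same range was 22 to 25 for mossy cells against hippocampus with vehicle, 20 to 22 for granule against mossy cells and 8 to 11 for granule cells against hippocampus. For differences between fluoxetine effects it was 0 to 0 (mossy cells minus hippocampus), 0 to 2 (granule minus mossy cells, 2 without granule-cell fluoxetine library 2) and 0 to 8 (granule cells minus hippocampus, 8 without the same library). Without vehicle libraries 1, 2 and 4 the calls were 1 in mossy cells and 10 in hippocampus, and without vehicle libraries 3, 5 and 6 they were 1 in mossy cells. These fits hold 3 vehicle libraries. Counts in this section stand without the share of all genes called in the same fit, so they do not show how far channel genes followed that share. Limma-voom called 1 difference between mossy cells and hippocampus, and DESeq2 2 between granule and mossy cells. For granule cells minus hippocampus, the call was 0 with no filter and with limma-voom, 9 with DESeq2 and 3 after the GC content and length correction; the cause was not tested. With the replicate block the mossy-cell count was 10, against 16, and the granule cells minus hippocampus count 0, where the numbers do not pair the libraries; the paired comparisons (mossy cells against hippocampus 24, where 25 were called without it, and granule-cell fluoxetine 0) moved by 1 call at most. Genes under about 1 CPM, such as Cacna1f, are limited by depth.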
